A study of Rattus norvegicus with 21 samples.

Results

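The cytosolic ribosomal protein genes were followed through left ventricles of aged and relaxin (RLX) treated rats. RLX is a peptide hormone of pregnancy that also acts on heart and vessels. Members were chosen by gene name alone, as rows named Rpl or Rps with a number and at most 1 of the suffix letters a, x, l or y, together with Rplp0 to Rplp2 and Rpsa, and without the Rps6k kinases. This gave 68 of the 26597 gene rows, of which 37 encode large-subunit proteins, 2 encode proteins of the P-stalk and 29 encode small-subunit proteins. A further 34 rows carry 1 of 11 ribosomal protein names with a copy number, such as Rplp1_1 and Rpl19_1, and fall outside the name rule. These genes and the lists compared with them were chosen with earlier results of the same data known.

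All rats were of the F-344/Brown Norway strain. The groups were 4 females and 3 males at 9 months given vehicle, 4 females and 3 males at 24 months given vehicle, and 4 females and 3 males at 24 months given RLX at 400 µg/kg/day. Vehicle (sodium acetate, the control) and RLX were both delivered for 14 days by osmotic mini pumps under the skin, so that the controls carried a pump too. RLX-treated rats of 9 months were not analysed here. The 4 comparisons were female aging and male aging (24-month control minus 9-month control), and RLX in females and in males (24-month RLX minus 24-month control). Within a sex, the aging and the RLX comparison share the 24-month controls, so a library that is high among these controls raises the first and lowers the second. Females and males were loaded for sequencing at different concentrations, and levels were therefore not tested between the sexes.

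A ribosome is built from a small subunit, which reads the mRNA, and a large subunit, which joins amino acids. Each holds ribosomal RNA and many proteins that are needed in equal number. Most of these mRNAs start with a C followed by a run of pyrimidines, the 5′ terminal oligopyrimidine (TOP) tract, through which the growth kinase mTOR controls their translation. In the heart, ribosome production rises in growth of the muscle cell, and striated muscle also makes Rpl3l, a second form of the large-subunit protein Rpl3.

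Library depth ranged from 11997512 to 19027947 counts over the 21 rats. The tissue label matched the markers, with all 8 ventricular muscle genes present and summed levels of 26000 to 39400 CPM (counts scaled to library size). The summed level of 5 atrial muscle genes was 6610 CPM in the 24-month control female rat 5, against 1240 CPM or less in the other females. The red cell genes summed to 11400 CPM in the RLX-treated female rat 4 and 1450 CPM in the 24-month control female rat 6, against 333 CPM or less elsewhere. Counts of members with a library left out are given beside each comparison where they moved by more than 1.5 times. In whole ventricle, a change in the mix of cells and a change of RNA per cell cannot be told apart.

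To show the TOP tract, the annotated start was read for the members found by symbol in RefSeq (rat build GRCr8). Of the 68 members, 52 had an entry. In 18 of these, 34.6%, the first listed transcript began with C followed by at least 4 bases that are each C or T, read on the gene's own strand, as against 2.63% of all 27457 genes with an entry. The windows below hold the 10 bases before the start and the first 20 transcribed bases, with the TOP tract in capitals. The first 6 were chosen to show the tract among members named below. The last 5 have no match at the first base. Of these, Rpl3, Rps19 and Rpl13 are called in female aging, and Rpl3l and Rps27l are paralogs, so that members named in the results lie on both sides.
Rplp0, chr12:46718371-46718400, minus strand: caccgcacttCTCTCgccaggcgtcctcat
Rps26, chr7:1643385-1643414, minus strand: ccgccgggtcCTCTTTCgagtcttggctcc
Rps27, chr2:177964587-177964616, minus strand: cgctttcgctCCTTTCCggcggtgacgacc
Rpl35, chr3:43165902-43165931, minus strand: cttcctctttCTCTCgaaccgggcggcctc
Rpl10a, chr20:6390523-6390552, plus strand: cttctgccttCTTTTCCggttcccgcagcc
Rpl37a, chr9:81748081-81748110, plus strand: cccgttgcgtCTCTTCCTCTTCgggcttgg
Rpl3, chr7:113507971-113508000, minus strand: gcctgctcgatctctatcggcggcgtgtgg
Rps19, chr1:89608678-89608707, plus strand: cttgtgcgcccgggaaaccccgtcgttccc
Rpl13, chr19:68062504-68062533, plus strand: cggtgcccgatcctttccgctcggccgttc
Rpl3l, chr10:14258436-14258465, plus strand: ctggtgcctggtggggaggtcccttcctaa
Rps27l, chr8:76443648-76443677, plus strand: ttcatttgtcattatttgtggtgtccagag

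The capitals run over 5 bases in Rplp0 and Rpl35, 7 in Rps26, Rps27 and Rpl10a, and 12 in Rpl37a. The absence of the letters at the first base says only that they do not stand at this annotated start. Within a window of 15 bases around the start, C followed by 4 pyrimidines was found in 61.5% of the members and in 17% of all genes. The build of the deposited coordinates was not given in the sources used here. Those coordinates place Rpl10 on chromosome 1 and Rps4x on chromosome 4, whereas RefSeq places both on X, so that the values of these rows are uncertain.

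Levels differed widely between members. Per length, as RPKM (reads scaled to gene length and library size) over the 21 libraries, Rpl41, the smallest ribosomal protein, had the highest mean with 2156. Rpl26 with 1658, Rps27, Rps24 and Rpl10 were also among the highest. Low levels were found for Rpl8 with 13.2 RPKM, Rpl10l with 4.25 and Rpl39l with 0.78. Rpl8 is a universal large-subunit protein, and Rpl10l and Rpl39l are forms known from testis. Rpl39l, with 137 counts over all libraries, and 1 further member did not pass the filter on low counts in any of the 4 comparisons, so that 66 members were tested in each. Many ribosomal protein genes have processed copies elsewhere in the genome. How reads that match several places were counted was not given in the sources used here, so low levels such as those of Rpl8, Rps14 and Rps4x are uncertain.

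**Figure D1:**
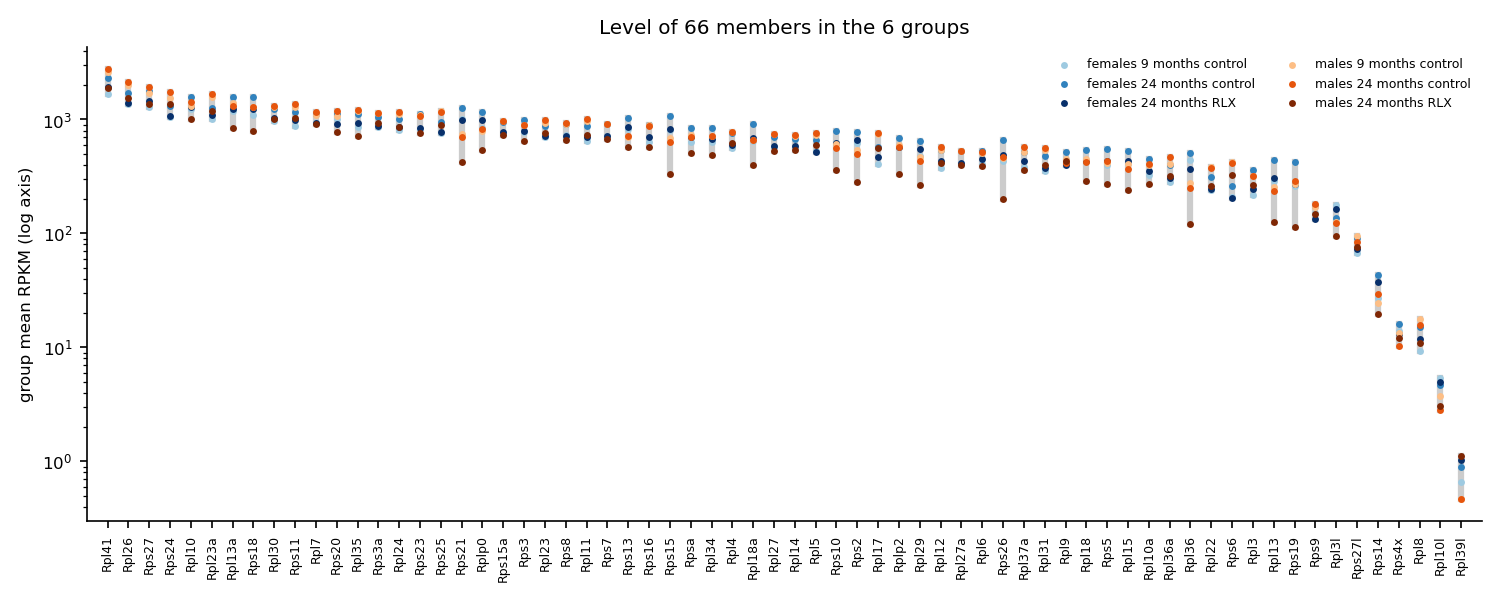
Mean RPKM (log axis) of 66 of the 68 members in the 6 groups, ordered by the mean over all libraries, with a grey bar from the lowest to the highest group mean. Rpl41 leads with a mean of 2156, and 5 members from Rps14 to Rpl39l lie well below the rest.

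Together the members took 2.42% to 4.58% of the counts of a library. In 9-month control females the share was 2.59%, 3.21%, 2.63% and 3.7% in rats 1, 3, 4 and 5, and in 24-month control females it was 3.54%, 3.84%, 3.77% and 4.58% in rats 2, 4, 5 and 6. These groups overlapped in 1 young rat. In RLX-treated females the share was 3.41%, 3.28%, 3.23% and 2.6% in rats 1, 2, 4 and 6, below every 24-month control female. In males it was 3.1%, 4.28% and 3.63% in 9-month controls (rats 2, 3 and 4), 3.51%, 3.59% and 4.18% in 24-month controls (rats 8, 11 and 12), and 2.57%, 2.42% and 3.23% under RLX (rats 2, 3 and 7). All 3 RLX-treated males were below every 24-month control male, while the 2 ages overlapped throughout.

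**Figure D2:**
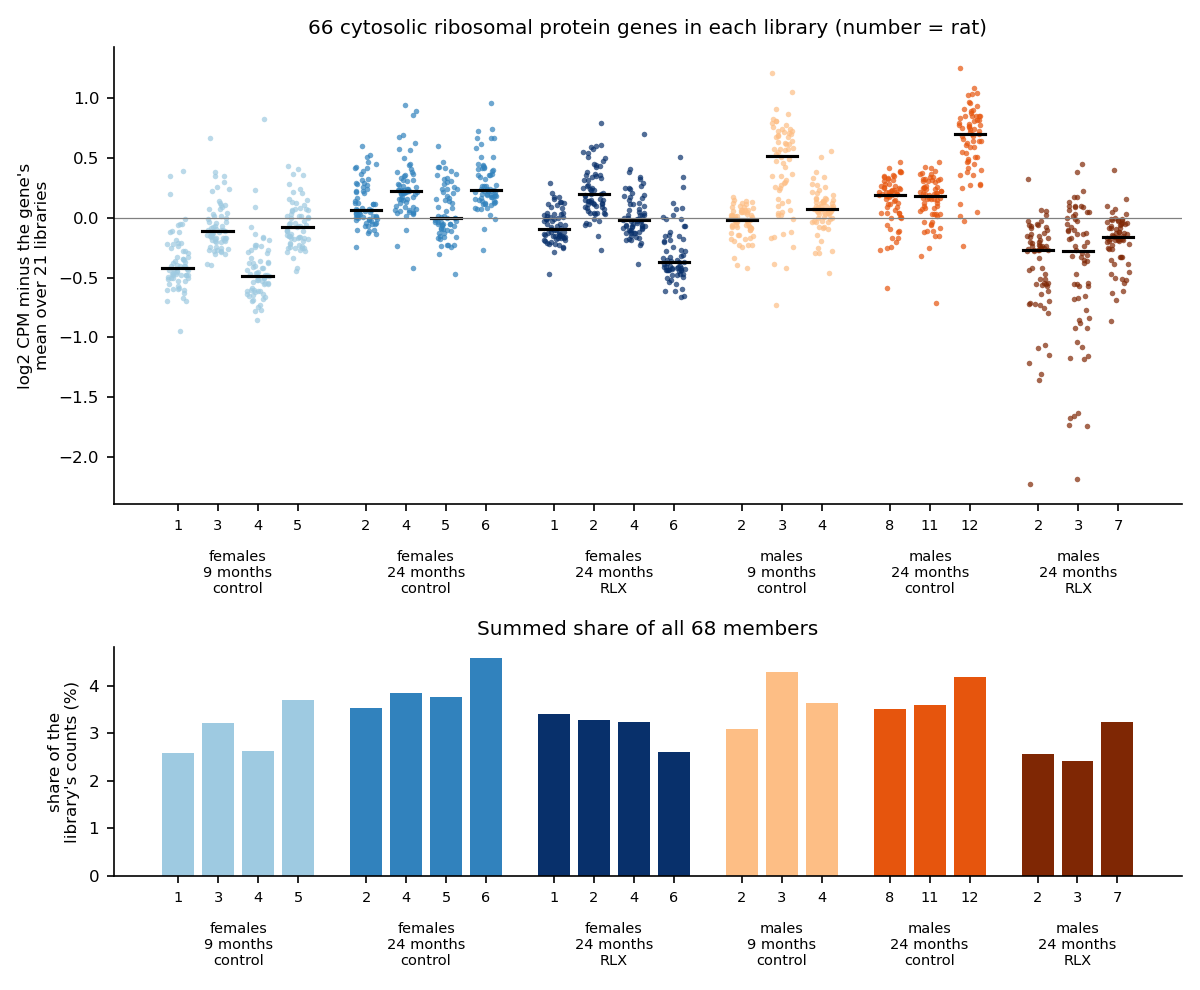
Upper panel, log2 CPM of each of the 66 tested members minus the gene's own mean over 21 libraries (points, with the median as a black line). Lower panel, share of the library's counts held by all 68 members in percent. The medians are lowest in the 9-month control female rats 4 and 1 (-0.48 and -0.42) and highest in the 24-month control male rat 12 (0.70), and the points spread widest in the RLX-treated male rats 2 and 3.

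Female aging was the first question. Ribosomal protein mRNAs were higher in the hearts of 24-month than of 9-month females over nearly the whole set. The median log2 fold change of the 66 members was 0.40, against -0.001 over all 12696 genes tested, and 64 members were positive, as were 49.9% of all genes. By edgeR's quasi-likelihood test with Benjamini-Hochberg adjustment, 25 members rose and none fell at FDR of at most 0.05, a limit that 3.47% of all genes passed upward and 1.88% downward. This count was not stable in refits, for which the share of all genes is not given here. With 1 library left out it ranged from 1 to 35, with 1 and 2 without the 9-month control rats 1 and 4, 6 and 2 without the 24-month control rats 4 and 6, and 14 without the 24-month control rat 2, and it was 1 when libraries were scaled by their totals in place of TMM factors, which discount extreme genes. When a fold change over 1.5 and, in either group, an average RPKM of 1 or more were required too, 4 members were called higher and 0 lower, against 2.29% and 0.480% of all genes. DESeq2 and voom each called 6 members higher and 0 lower, with 3.40% and 2.42% of all genes higher and 0.685% and 0.528% lower. At an unadjusted p under 0.05, 60 members were higher and 1 lower (background 11.6% and 9.64%). All 24-month values lay above all 9-month values in 50 members and below them in 1 (background 7.37% and 6.69%).

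The 4 called members were Rpl3, Rps19, Rpl13 and Rps26, of which Rps26 was named after its values were seen. Rpl3, which lies close to the site where peptide bonds form, had 259, 334, 256 and 346 CPM in 9-month females and 453, 460, 487 and 587 CPM in 24-month females. Every old female exceeded every young one. Its log2 fold change was 0.74 ± 0.126 (SE), with an adjusted p of 0.0103. Rps19, which in humans is the gene most often mutated in Diamond-Blackfan anaemia, had 118, 191, 115 and 164 CPM at 9 months and 213, 278, 227 and 238 CPM at 24 months. Again the groups did not overlap, and the log2 fold change was 0.71 ± 0.163 with an adjusted p of 0.0334. Rpl13 went from 225 ± 44.1 (SD, n = 4) to 348 ± 50.1 CPM (adjusted p = 0.0334 in edgeR). Rps26, which contacts the mRNA where it leaves the small subunit, went from 200 ± 39.8 (SD, n = 4) to 309 ± 25.9 CPM, with an edgeR adjusted p of 0.0248.

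Members with a smaller fold change but a tight spread also rose. Rpl29, a basic protein of the subunit surface, had 318, 341, 290 and 351 CPM at 9 months and 431, 448, 461 and 460 CPM at 24 months, with a log2 fold change of 0.48 ± 0.0859 and an adjusted p of 0.0135. Rpl10a, of the mobile L1 stalk through which spent tRNA leaves, went from 244 ± 29.4 (SD, n = 4) to 343 ± 12.2 CPM, and Rpl12, at the foot of the P-stalk, from 255 ± 36.3 to 369 ± 29.4 CPM (adjusted p in edgeR 0.0195 and 0.0231). Rplp0, the base of the P-stalk to which translation factors bind, had 937, 1090, 866 and 1140 CPM at 9 months and 1410, 1330, 1460 and 1430 CPM at 24 months. The lowest old female was thus well above the highest young one, and the log2 fold change was 0.49 ± 0.101 with an adjusted p of 0.0231. The other P-stalk member of the rule, Rplp2, had a log2 fold change of 0.29 ± 0.091 with an adjusted p of 0.0896. Rps6, the small-subunit protein that S6 kinase phosphorylates, had 0.36 ± 0.119 (adjusted p = 0.104), and Rpsa, the protein of the mRNA exit side also named for laminin binding, rose by 0.45 ± 0.107 (adjusted p = 0.0345). By subunit, 16 of 36 large-subunit, 8 of 28 small-subunit and 1 of 2 P-stalk members tested rose at FDR of at most 0.05, with medians of 0.41, 0.39 and 0.39.

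Both members with a negative estimate were paralogs. Rpl3l, the striated muscle form of Rpl3, had 267, 245, 246 and 243 CPM in 9-month females (rats 1, 3, 4 and 5) and 221, 196, 198 and 174 CPM in 24-month females (rats 2, 4, 5 and 6). All old females were below all young ones, opposite to Rpl3, and the log2 fold change was -0.34 ± 0.0903 with an adjusted p of 0.0507, above the limit of 0.05. Rpl10l, at 3.71 ± 0.96 (SD, n = 4) and 3.24 ± 0.958 CPM, had a log2 fold change of -0.19 ± 0.245 with an edgeR adjusted p of 0.709.

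Members are short genes, with a median length of 730.8 bases, and in these libraries fold changes varied with length. Length was taken from the counts over the RPKM. In female aging, other genes within 10% of a member's length had median log2 fold changes of 0.05 to 0.20, and 64 of 66 members lay above the median of their own length class, by 0.30 in the median. The difference between short (under 1000 bases) and long genes (over 4000 bases), as medians of log2 CPM deviations, ranged from -0.32 to -0.04 in 9-month and from -0.10 to 0.21 in 24-month control females. With the trend on length removed from each library, the member median was 0.28, 23 members rose at FDR of at most 0.05 and 1 fell, and 1 passed the fold limit as well. In that fit 323 of 12696 genes were called with the fold limit, and the share of all genes at FDR alone is not given here.

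Markers of some other cells differed between the same groups. All 5 fibroblast genes had counts, and they summed to 1860 to 2530 CPM in 9-month and 3220 to 3810 CPM in 24-month control females. The 6 macrophage genes with a row, of 7 listed, summed to 296 to 404 and 593 to 740 CPM, and the 8 ventricular muscle genes to 34100 to 39400 and 26000 to 30800 CPM. The 8 T and B cell genes summed to 44.3 to 56 and 77.2 to 92.6 CPM. Among them, the B cell genes Cd79a, Cd79b and Ms4a1 had at most 0.0541, 0.0975 and 0.161 CPM in any library. The 6 red cell genes summed to 5.75 to 7.03 and 9.87 to 1450 CPM, where 1450 CPM was rat 6 and the next was 27 CPM in rat 4. Of the 4 tested, 3 were positive, and Slc4a1 was negative with a log2 fold change of -0.675. The 4 endothelial genes summed to 222 to 249 and 205 to 273 CPM, with overlap. The part of these markers in the result was not tested. The number of members called with the fold limit ranged from 1 to 10 when 1 library was left out, with 1 without the 24-month control rats 4 or 6 or the 9-month control rats 1 or 4, 8 without the 24-month control rat 5, and 9 and 10 without the 9-month control rats 3 and 5, while the median stayed between 0.34 and 0.47. The number of all genes called moved too, from 352 to 102 without the 9-month control rat 4 and to 395 without the 9-month control rat 5.

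**Figure D3:**
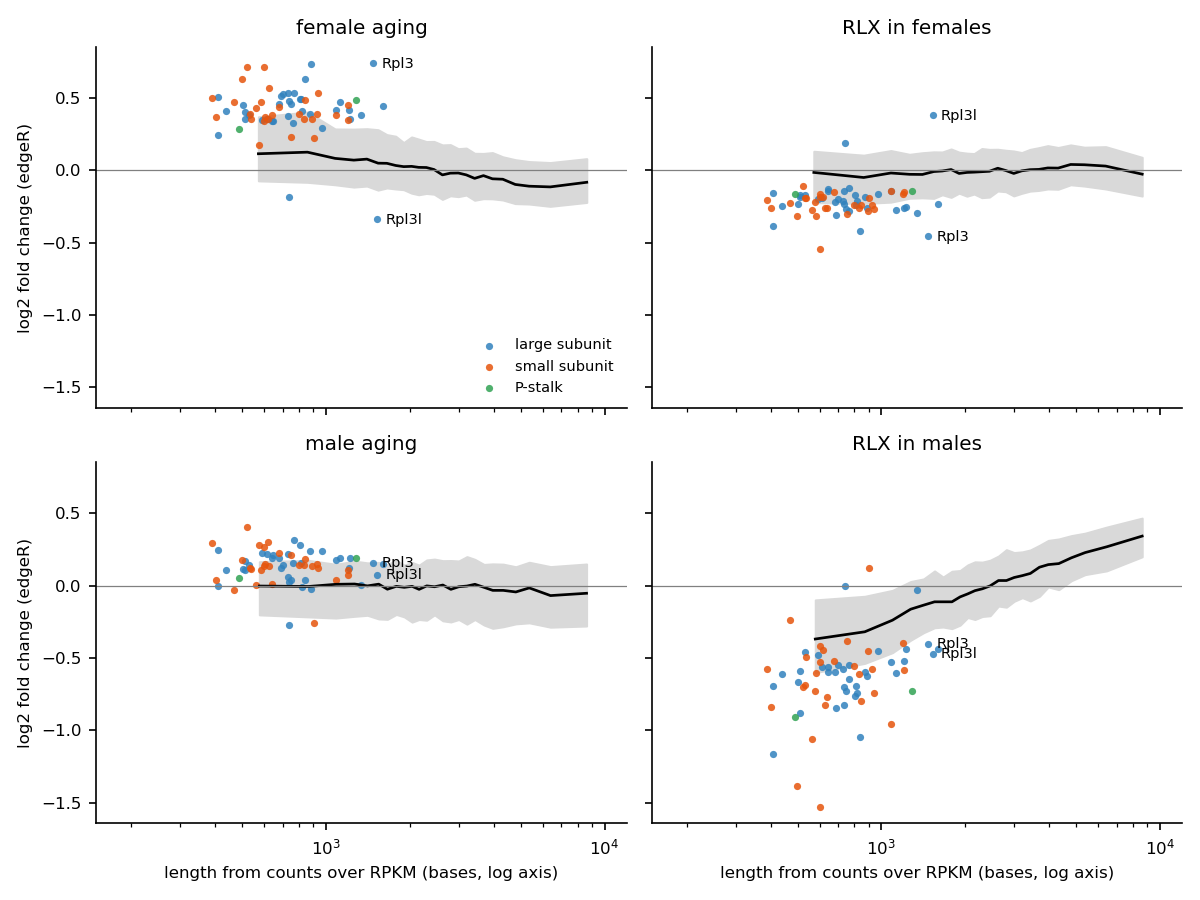
log2 fold change of each tested member (points, coloured by subunit) against gene length (bases, log axis) in the 4 comparisons. The black line is the median and the grey band the quartiles of other genes in bins of length. Members lie above the line in female aging (median difference 0.30) and below it in RLX in females (-0.18) and RLX in males (-0.30). The line itself falls with length in female aging and rises, more steeply, in RLX in males. Rpl3l stands opposite to Rpl3 in both female panels.

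RLX in females was compared next, against the same 24-month controls. The member median was -0.22 on the log2 scale, against -0.007 over all 12591 genes. Of the 66 members, 2 were positive and 64 negative, against 48.9% and 51.1% of all genes. No member was called, nor any gene (0% in both directions). At an unadjusted p under 0.05, 1 member was higher and 12 were lower, with 6.27% of all genes higher and 7.81% lower. The groups did not overlap in 2 members that were lower and 1 that was higher (background 3.84% and 4.14%). DESeq2 called 0 members with the fold limit, which 0.167% of all genes passed upward and 0.969% downward. With voom, 0 members and 0% of genes were called. At FDR of at most 0.05 alone, DESeq2 gave 2 members lower, for which the share of all genes is not given here.

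The 2 lower members without overlap were Rpl3 and Rps19, and the higher one was Rpl3l. Rpl3 had 376, 424, 356 and 305 CPM in RLX-treated rats 1, 2, 4 and 6, below all 4 of its 24-month control values given above, with a log2 fold change of -0.46 ± 0.123 and an adjusted p of 0.155. Rps19 had 162, 212, 168 and 119 CPM under RLX, all below its lowest control value of 213 CPM, and its log2 fold change was -0.55 ± 0.155 with an adjusted p of 0.175. Rpl3l had 223, 308, 253 and 251 CPM under RLX, all above its highest control value of 221 CPM, and its log2 fold change was 0.38 ± 0.115 with an adjusted p of 0.198. Rpl36, a small basic protein of the large subunit, and Rpl13 had log2 fold changes of -0.39 ± 0.138 and -0.42 ± 0.15, both with an edgeR adjusted p of 0.248. The P-stalk members were close to the controls, with -0.14 ± 0.111 for Rplp0 and -0.16 ± 0.117 for Rplp2 on the log2 scale.

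Other genes of the members' length had medians of -0.08 to 0.04 in this comparison, and 64 of 66 members lay below their own length class, by 0.18 in the median. Over the same groups, the fibroblast genes summed to 2110 to 2540 CPM under RLX against 3220 to 3810 CPM in controls, and ventricular muscle genes to 31700 to 38300 against 26000 to 30800 CPM. The T and B cell genes summed to 46.4 to 72.1 against 77.2 to 92.6 CPM, also without overlap of the sums. Of these genes 5 were tested, and all 5 were negative, 2 of them at an unadjusted p under 0.05 in edgeR. In 0 of the 5 were the groups apart in the single gene. The macrophage genes summed to 341 to 612 against 593 to 740 CPM, with all 6 negative and 5 of them at an unadjusted p under 0.05. Their part was not tested. Without RLX-treated rat 6, in which the members had a median deviation of -0.37, the member median was -0.13, and without RLX-treated rat 2, in which it was 0.20, the median was -0.30. The 12 members lower at an unadjusted p under 0.05 became 48 without RLX-treated rat 2, but 4, 7 and 5 without RLX-treated rats 1, 4 and 6, and 5 and 4 without control rats 4 and 6. They were 8 and 19 without control rats 2 and 5, 57 with library totals and 31 with the length trend removed. With library totals the median of all genes was itself -0.113. The shares of all genes at this limit in these refits are not given here.

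The balance of Rpl3 and its muscle form was read per length in each library. Rpl3l made up 49.8%, 41.4%, 48.1% and 40.4% of the summed RPKM of the pair in 9-month control females (rats 1, 3, 4 and 5). The share was 32%, 29.1%, 28.1% and 22.2% in 24-month control females (rats 2, 4, 5 and 6) and 36.4%, 41.2%, 40.6% and 44.3% in RLX-treated females (rats 1, 2, 4 and 6). Neither the young nor the RLX-treated females overlapped with the old controls. The mean was lower by 17.1 percentage points in old than in young females and higher by 12.8 under RLX, each with an exact two-sided permutation p of 0.0286, the smallest that 4 against 4 can give, and 0.229 after adjustment over the 16 tests of 4 paralog pairs. In males the share was 37.8%, 26.6% and 22% at 9 months (rats 2, 3 and 4), 30.9%, 32.3% and 21.1% at 24 months (rats 8, 11 and 12), and 27.9%, 25.1% and 25.9% under RLX (rats 2, 3 and 7). The male groups overlapped in both comparisons (exact permutation p = 0.9 and 0.7, with 0.1 the smallest that 3 against 3 can give). In edgeR's test of the difference between the sexes, Rpl3l had an RLX effect in females minus that in males of 0.88 ± 0.172 on the log2 scale (adjusted p = 0.113) and an aging effect of -0.44 ± 0.188 (adjusted p = 0.207).

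**Figure D4:**
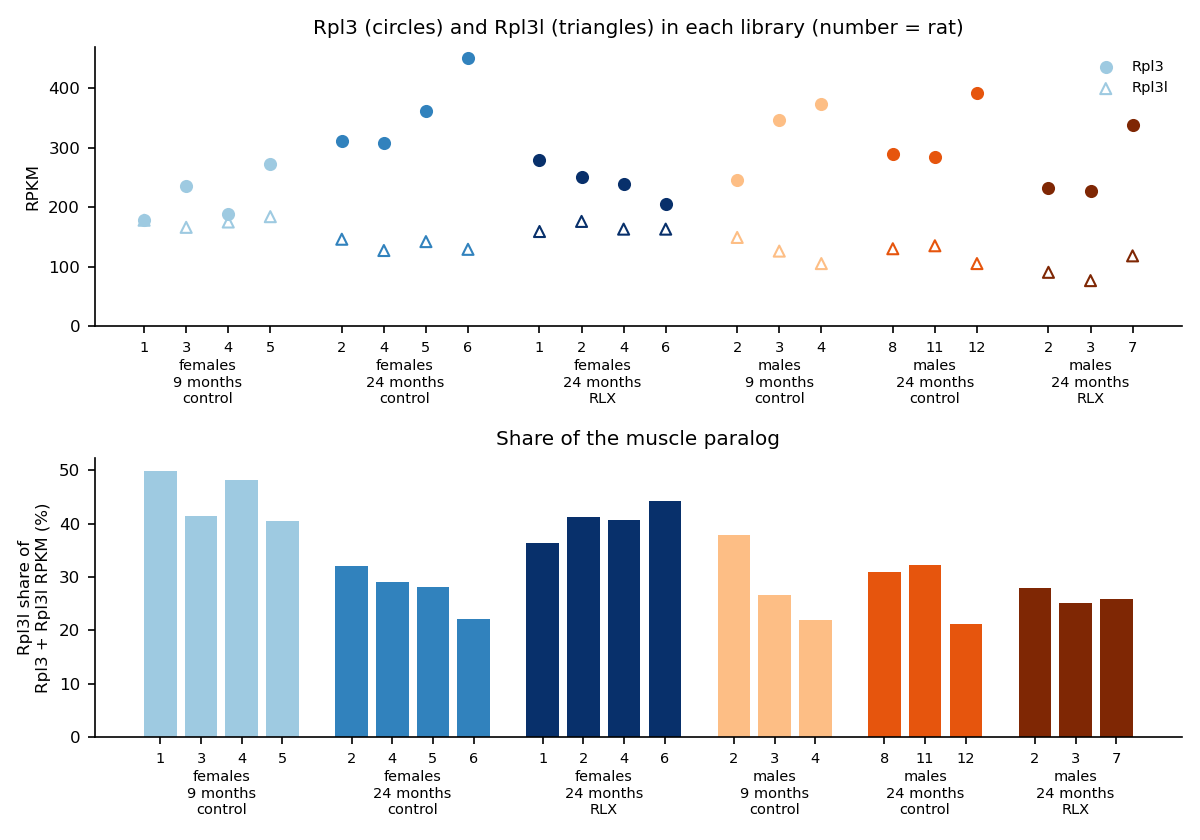
Upper panel, RPKM of Rpl3 (circles) and its striated muscle paralog Rpl3l (triangles) in each library. Lower panel, Rpl3l as a percentage of the summed RPKM of both. The share lies between 22.2% and 32% in 24-month control females, and between 36.4% and 49.8% in the other females.

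In the other pairs the female groups overlapped. Rps27l, a stress-linked form of Rps27 at a low level, was 4.96% ± 0.511 (SD, n = 4) of the pair in 9-month, 4.91% ± 0.21 in 24-month control and 4.84% ± 0.664 in RLX-treated females. In males it was 5.34% ± 1.15 (SD, n = 3), 4.2% ± 0.152 and 5.28% ± 0.427, and the 24-month controls lay below both other groups without overlap (exact permutation p = 0.1 for each, 0.4 adjusted). Rpl22l1, the paralog of Rpl22 that lies outside the name rule, made up 55.4% ± 4.16, 53.6% ± 2.92 and 52.1% ± 2.68 in the 3 female groups and 31.7% ± 2.24, 32.9% ± 1.5 and 36.2% ± 4.21 in the 3 male groups, in the order 9-month control, 24-month control and RLX. Rpl10l made up less than 1% of its pair with Rpl10 in every library, and the other Rps4 row, Rps4y2, had 39 counts over all libraries, for which no comparison was made.

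In male aging no member passed the test. The member median was 0.14 on the log2 scale, against -0.012 over all 12220 genes, and 60 of 66 members were positive and 6 negative (48.3% and 51.7% of all genes). No member was called, nor any gene (0%), and at an unadjusted p under 0.05 no member was higher or lower either, as against 2.82% and 5.73% of all genes. DESeq2 called 0 members too, with 0.245% of all genes higher and 0.237% lower, and so did voom, with 0.205% and 0.352%. In all 66 members the 2 ages overlapped, while 7.32% of all genes were higher and 6.92% lower without overlap. Rps14, which in humans lies in the region lost in the 5q syndrome, came first by p, with 14.5, 11.8 and 12.6 CPM at 9 months (rats 2, 3 and 4) and 15.8, 12.9 and 24.1 CPM at 24 months (rats 8, 11 and 12). The difference came mainly from 1 old rat, and the log2 fold change was 0.41 ± 0.241 with an adjusted p of 0.699. Rps20, Rpl37a and Rpl36a had log2 fold changes of 0.28 ± 0.202, 0.28 ± 0.233 and 0.31 ± 0.272, and the lowest were Rpl10l with -0.27 ± 0.359 and Rps4x with -0.26 ± 0.34, all with an edgeR adjusted p of 0.775 or more. Within each age, 1 library stood above the others, the 9-month rat 3 with a median member deviation of 0.52 and the 24-month rat 12 with 0.70. Without rat 3 the member median was 0.30, with 9 members higher at an unadjusted p under 0.05, and without rat 12 it was -0.02. The share of all genes at this limit without rat 3 is not given here. Red cell genes summed to 56.4 to 128 CPM at 9 months and 7.82 to 20.6 CPM at 24 months, and endothelial genes to 277 to 322 and 188 to 270 CPM. Of the 5 red cell genes tested, 4 had a negative log2 fold change, and Slc4a1 was positive at 0.484. Neutrophil genes summed to 1.19 to 1.41 and 0.0975 to 0.592 CPM, and each of these sums was without overlap. Of the 5 neutrophil genes, only 1, S100a9, passed the filter on low counts, with means of 0.818 CPM at 9 months and 0.146 CPM at 24 months. The part of these markers was not tested.

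RLX in males gave the largest member median of the 4 comparisons, -0.60 on the log2 scale against 0.011 over all 12232 genes, with 1 member positive and 65 negative (51.3% and 48.7% of all genes). No member or gene passed an FDR of 0.05 in edgeR (0%), and the smallest adjusted p of a member was 0.283. At an unadjusted p under 0.05, 0 members were higher and 58 lower, with 4.41% and 7.55% of all genes. The RLX-treated males lay below all 24-month controls without overlap in 60 members and above them in 0 (background 12.7% and 7.49%). The call depended on the test used. DESeq2 called 24 members lower and voom 21, with 0.875% and 1.23% of all genes, and neither called one higher (0.0409% and 0.0899%).

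Rps21, a small-subunit protein, came first by p. It had 302, 365 and 284 CPM in 24-month control rats 11, 12 and 8 and 161, 151 and 209 CPM in RLX-treated rats 2, 3 and 7. The log2 fold change was -0.84 ± 0.165 (adjusted p = 0.283). Rplp2, whose acidic tail on the P-stalk draws in translation factors, had 299, 351 and 293 CPM in controls and 155, 127 and 210 CPM under RLX, and a log2 fold change of -0.91 ± 0.187. The 2 groups were apart in both genes, with RLX-treated rat 7 nearest to the controls. Rplp0 had 1190 ± 184 (SD, n = 3) CPM in controls and 704 ± 151 under RLX. Rpl35, by the exit of the peptide tunnel, had 701 ± 151 and 373 ± 61.8 CPM, and Rps10, of the beak of the small subunit, had 409 ± 63.5 and 235 ± 34.9 CPM. The edgeR adjusted p was 0.283 for each of these. The only member with a positive estimate was Rps4x, with 0.12 ± 0.273 (adjusted p = 0.891). Rpsa and Rps6 had -0.59 ± 0.16 and -0.45 ± 0.223 (adjusted p = 0.283 and 0.459).

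The spread among members was wide in 2 of the RLX-treated males. Over all 21 libraries the highest CPM of a member was 2.63 times the lowest in the median, and 17 of the 66 exceeded 3 times. Within the males the ratio was 2.12 in the median, and it was 8.0 for Rps19, 5.21 for Rps26, 4.62 for Rpl36, 4.03 for Rpl13, 3.82 for Rps15 and 3.64 for Rps2, the widest of the 62 members with more than 20 CPM in every library. These were named for their range, after their values were seen. Rps19 had 146, 257 and 196 CPM in 24-month control rats 11, 12 and 8, and 32.1, 44.8 and 126 CPM in RLX-treated rats 2, 3 and 7. Rpl36 had 113, 127 and 104 CPM in these controls and 54.1, 27.6 and 69 CPM under RLX. Both were lowest in rats 2 and 3, while rat 7 was nearest to the controls. Their log2 fold changes were -1.53 ± 0.509 and -1.16 ± 0.283 (adjusted p = 0.341 and 0.283). By contrast, Rpl9, Rpl3l, Rps13, Rpl4, Rps27l and Rps9 ranged by 1.48 to 1.82 times over the 9 males. The SD of the member deviations was 0.41 and 0.58 in RLX-treated rats 2 and 3, 0.21 in rat 7, and 0.20 to 0.29 in the 24-month controls. In the 9-month control males it was 0.13, 0.38 and 0.18 in rats 2, 3 and 4. The untreated rat 3 was thus close to RLX-treated rat 2.

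**Figure D5:**
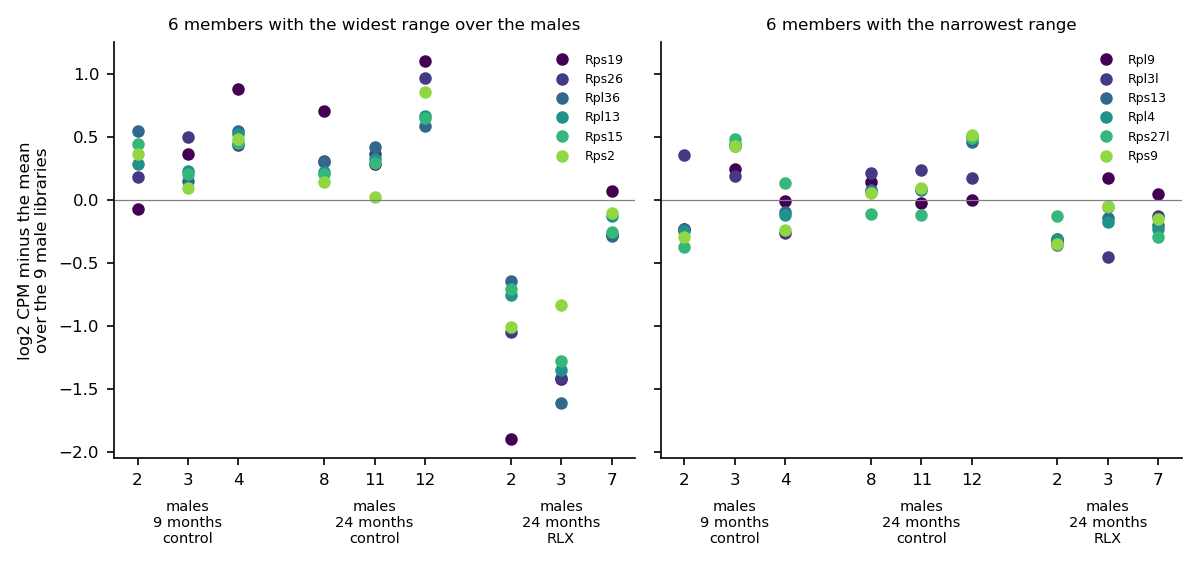
log2 CPM minus the mean over the 9 male libraries for the 6 members with the widest (left) and the 6 with the narrowest (right) range, by library. The wide set is lowest in RLX-treated rats 2 and 3, where Rps19 was at 32.1 and 44.8 CPM.

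Genes of the members' length also had their lowest values in this comparison. Other genes within 10% of a member's length had medians from -0.57 to -0.11, and members lay below their own length class by 0.30 in the median, in 62 of 66. The short minus long gene difference was -0.30 to -0.23 in the 3 RLX-treated males and 0.08 to 0.52 in the 3 controls, without overlap, and its part in the member result was not tested beyond the fit without the trend. In that fit the member median was -0.28, with 28 members lower at an unadjusted p under 0.05. No member was called, nor any gene, and the share of all genes at the unadjusted limit is not given here. The G+C content of the first 50 transcribed bases ran against the fold change, with a Spearman correlation of -0.44 across the 52 members with a RefSeq entry, given as a description since all points share the same libraries. It was -0.26, -0.17 and 0.19 in male aging, RLX in females and female aging. Members with and without the TOP tract at the first base had similar medians, -0.64 (18 members) and -0.58 (34 members) in this comparison and 0.46 and 0.38 in female aging. Ventricular muscle genes summed to 27600 to 30500 CPM in RLX-treated and 35200 to 37400 CPM in control males, without overlap of the sums. Of these 8 genes, 7 had a negative log2 fold change, with Myh6 at -0.004, and Ryr2 was positive at 0.471. The sums of the 4 endothelial genes were barely apart, with 271 to 305 CPM under RLX and 188 to 270 CPM in controls. All 4 genes were positive, with 0 at an unadjusted p under 0.05 in edgeR. In 0 of the 4 were the groups apart in the single gene. Their part was not tested. Leaving out the control rat 12 moved the member median to -0.41, and the range over all 6 libraries left out was -0.69 to -0.41.

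The difference between the sexes was tested directly. For aging, the female minus male effect had a member median of 0.24 (all genes 0.006), and no member was called, against 1.70% and 1.15% of genes called higher and lower. At an unadjusted p under 0.05, Rpl29 (0.42 ± 0.159) and Rpl13 (0.57 ± 0.236) were higher and Rpl3l lower, with edgeR adjusted p of 0.148, 0.192 and 0.207. This is 2 higher and 1 lower of 66 members, against 10.9% and 9.04% of all genes. Without the 24-month control male rat 12, 20 members were higher, and in the other fits that left out 1 library 0 to 8 were. For RLX, the female minus male effect had a median of 0.42 over 67 members (all genes 0.005), with 30 members positive and 0 negative at an unadjusted p under 0.05 (8.70% and 5.45% of genes), and no member or gene was called in edgeR (0%). DESeq2 called 5 members higher, with 1.59% of all genes. The 30 members became 10 without the 24-month control male rat 12, 13 without the RLX-treated female rat 2, 18 and 17 without the RLX-treated male rats 2 and 3, and 44 without the RLX-treated female rat 6. With the length trend removed they were 8, and the median was 0.14. For both sex differences, the shares of all genes at the unadjusted limit in the refits are not given here.

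Other genes of translation were read beside the members. Of 17 tested genes for elongation factors and other TOP mRNAs, 4 rose at FDR of at most 0.05 in female aging and none fell. Of all genes, 3.47% rose and 1.88% fell at this limit. The list had a median log2 fold change of 0.25. Eef1a1, which brings aminoacyl-tRNA to the ribosome, went from 1980 ± 322 (SD, n = 4) to 3380 ± 332 CPM (adjusted p = 0.00903), Eef1g, a subunit of its exchange factor, from 459 ± 32.8 to 637 ± 43.1 CPM (adjusted p = 0.0148), and Gnb2l1, the Rack1 scaffold on the small subunit, from 486 ± 55.1 to 650 ± 19.2 CPM (adjusted p = 0.0281). In RLX in females all 17 were negative with a median of -0.14, in male aging the median was 0.17, and in RLX in males it was -0.37 with 16 negative, and none passed an FDR of 0.05 in these 3 comparisons. Eef1a1 had a log2 fold change of -0.44 ± 0.117 under RLX in females (adjusted p = 0.155). Initiation factors, ribosome assembly factors and regulators of ribosome production had medians between -0.11 and 0.04 in female aging, with 0 of 28, 32 and 23 tested genes past an FDR of 0.05. In male aging the initiation and assembly lists had medians of 0.20 and 0.25, also with none past it.

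The 68 tested nuclear genes of mitochondrial ribosomal proteins and the 67 of the respiratory chain served as genes of another kind. Their median lengths were 1144 and 721 bases, against 730.8 bases in the members. In female aging their median log2 fold changes were -0.07 and -0.17. Of these genes, 0 and 12 fell at FDR of at most 0.05, a limit that 1.88% of all genes passed downward. Against their own length class, the mitochondrial ribosomal and respiratory chain genes lay 0.14 and 0.28 lower. Sdha, a subunit of succinate dehydrogenase, went from 640 ± 45.6 (SD, n = 4) to 452 ± 24.8 CPM (adjusted p = 0.011 in edgeR). In RLX in females their medians were 0.07 and 0.16, the opposite sign to the cytosolic members. In RLX in males they were -0.29 and -0.34, and against genes of their own length both lay 0.06 lower, where the cytosolic members lay 0.30 lower.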

How the data were processed

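The authors mapped reads to the rat genome with Biomedical Genomics Workbench 3.0.1 and deposited total counts and RPKM per gene, 1 library per rat, in 4 tables with identical values for shared controls. The study's design text speaks of 4 technical replicates per sample, for which no separate columns were read. No 2 libraries of a group agreed within sampling noise. Columns that map to no sample numbered 0. Deposited counts were fitted in edgeR 4.0.16 (R 4.3.3, filterByExpr, TMM factors, robust quasi-likelihood F test), 2 groups at a time, with Benjamini-Hochberg adjustment over all genes tested. Calls required FDR ≤ 0.05, a fold change over 1.5 and, in 1 of the groups or both, an average RPKM of 1 or more. CPM values use TMM factors over 21 libraries. DESeq2 1.42.0, limma 3.58.1 (voom with quality weights), RLE factors, library totals, no filter, 3 groups in 1 fit, removal of the trend on log length, a block on rat number and leaving out each library were alternatives. Fits were tested on simulated data. Members and lists were chosen with earlier results of these data known. Genes named were the 4 members with the smallest p in each direction per comparison, the 6 highest and 4 lowest by RPKM, P-stalk members, paralog pairs, Rpsa, Rps6 and up to 3 genes of each other list. Others are marked as chosen after their values were seen. Depth ranged from 11997512 to 19027947 counts. Promoter windows come from RefSeq, GRCr8. Some items are not reported here.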

Additional observations from a re-analysis of the deposited data

Results flagged for a closer look

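Over 96 values of named members and of the summed share in groups of 4 females, 1 sample stood far from the others of its group. Rpl3l was at 267 CPM in the 9-month control female rat 1, against 243 to 246 CPM in the other 3 rats. Chance flags about 1 in 20 such groups, so a single case among 96 is fewer than that. Groups of 3 males were not looked at in this way, and no member passed an FDR of 0.05 in edgeR's test of the difference between the sexes.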

How the results depend on the processing

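In female aging, members called higher numbered 4 and moved to 1 with library totals as well as with the length trend removed, to 0 with a replicate block on rat number and to 25 with FDR alone. They ranged from 1 to 10 with 1 library left out. The 25 with FDR alone ranged from 1 to 35 with 1 library left out, and were 1 with library totals and 0 with the replicate block. Of all 12696 genes, 352 were called in the main fit, 218 with library totals and 323 with the length trend removed. With the block 0 of these genes were called, while the member median was 0.42. Same-numbered rats did not deviate together in every pair (correlations of -0.0365 and -0.0915 in female aging, and 0.121, 0.153 and -0.189 in RLX in females). The numbers are shared only in part and were not used as a pairing in the main fit. So few correlations cannot exclude a pairing. The groups of the male aging comparison share no rat number, nor do those of RLX in males. In RLX in males, members called lower moved from 0 to 24 in DESeq2 and 21 in voom, and the median from -0.60 to -0.28 with the length trend removed. For the RLX effect in females minus that in males, members called higher moved from 0 to 5 in DESeq2 and ranged from 0 to 6 with 1 library left out, 6 being without the RLX-treated male rat 7, and the median moved from 0.42 to 0.14 with the length trend removed. Without that male, 218 of 13204 genes were called. Medians with 1 library left out ranged from 0.34 to 0.47 in female aging, -0.30 to -0.13 in RLX in females, -0.02 to 0.30 in male aging and -0.69 to -0.41 in RLX in males, and for the sex differences from 0.06 to 0.43 (aging) and 0.26 to 0.54 (RLX). Library totals moved the median of all genes to -0.113 in RLX in females, -0.123 in male aging and 0.127 in RLX in males, and that of members to -0.33, 0.02 and -0.46. Of 893 alternatives for 62 values of named genes, 43 lost and 24 gained an FDR of at most 0.05 and 31 turned sign. No value that turned sign had an FDR of at most 0.05 before. In male aging, library totals gave -0.02 for Rpl22, -0.03 for Rpl3l, -0.07 for Rplp2 and -0.06 for Rpsa, and voom -0.03 for Rpsa. In RLX in males, Rpl10l was 0.00 with RLE factors, 0.15 with library totals and 0.32 with the length trend removed, where Rps27l was 0.21. With 1 library left out, the values that turned sign ranged, in male aging, from -0.52 to 0.14 for Rpl10l, -0.12 to 0.34 for Rpl22, -0.12 to 0.30 for Rpl3, -0.07 to 0.21 for Rpl3l, -0.41 to 0.20 for Rpl8, -0.02 to 0.14 for Rplp2, -0.25 to 0.19 for Rps27l, -0.59 to 0.14 for Rps4x, -0.17 to 0.55 for Rps6 and -0.06 to 0.16 for Rpsa, in RLX in males from -0.66 to 0.35 for Rpl10l and -0.11 to 0.46 for Rps4x, and in female aging from -0.37 to 0.00 for Rpl10l. The cause was not tested. Rpl10l and Rpl39l are limited by depth.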

Other observations

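Rows outside the name rule that carry ribosomal proteins were also abundant. Rps29_2 had a mean of 2040 RPKM, Rplp1_1, the partner of Rplp2 on the P-stalk, 1360, Rpl19_1 1240 and Rpl32_1 1160, and Fau, which encodes a ribosomal protein fused to a ubiquitin-like protein, 708. Of the 34 copy-numbered rows, 23 or 24 were tested, with medians of 0.39 in female aging, -0.11 in RLX in females, 0.16 in male aging and -0.60 in RLX in males. In female aging 3 of the 23 tested rose at FDR of at most 0.05 in edgeR and 0 fell, against 3.47% and 1.88% of all genes. Reads shared between copies make single rows uncertain. In RLX in males, Fau had 470 ± 97.6 (SD, n = 3) CPM in controls and 256 ± 40.3 under RLX, with an edgeR adjusted p of 0.283.

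Among single libraries, the 9-month control female rat 4 held the lowest CPM of 30 of the 66 tested members and the RLX-treated male rat 3 that of 21, and the 24-month control male rat 12 held the highest of 46.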
